A study of Homo sapiens with 2 samples.

Results

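Heat shock proteins and J-domain proteins are the main protein-folding machinery of human cells, and their transcripts were described here in TCam-2, an established human cancer line that stems from a seminoma of the testis. The genes were chosen by symbol. They are the protein-coding HSPA, HSPB, HSPD, HSPE, HSPH and HSP90 genes (27 genes, leaving out the binding partners HSPBAP1 and HSPBP1) and the DNAJA, DNAJB and DNAJC genes (45 genes). In all, 72 of the 62700 genes in the gene table met the rule, 72 of 19831 protein-coding genes. Both libraries come from TCam-2 cells transduced with DDX53-FLAG, a tagged construct of the RNA helicase gene DDX53, and the labels give both the genotype DDX53 overexpression. The series holds this 1 group in 2 replicates, and the untransduced and GFP-FLAG control cells named in its design were not analysed here. No difference caused by DDX53 can therefore be given. The labels do not say whether the replicates came from separate cultures, so the spread between them may be technical. In bulk RNA of this kind, fewer expressing cells and less RNA per cell cannot be told apart.

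HSP70 proteins bind exposed hydrophobic stretches of client proteins in a cycle driven by ATP. J-domain proteins bring clients and stimulate ATP hydrolysis, and HSP110 proteins and other exchange factors then release the nucleotide. HSP90 acts later on clients such as kinases and steroid receptors, HSP60 with its lid HSP10 folds proteins in mitochondria, and small HSPs hold unfolded proteins without ATP. Some members are made in all cells. Others are switched on by heat or misfolded protein through HSF1, a transcription factor that binds heat shock elements, and a few are known mainly from spermatocytes and spermatids.

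The recovered reads per gene summed to 24137664 in replicate 1 and 22198929 in replicate 2. Levels of 1 gene are given as CPM, reads scaled to the total reads in genes, and levels of different genes are compared as TPM, which is per transcript length, summed over the transcripts of a gene. Where CPM of different genes stand side by side, they show numbers of reads, which also depend on gene length. DDX53 itself had 146 and 147 reads, or 6.05 and 6.62 CPM. As a check of the cell line, 7 of 7 markers of seminoma and germ cells reached 1 CPM in both libraries, from KIT at 67.7 and 68.1 CPM to POU5F1 at 1891 and 1921 CPM. SOX2, which seminoma lacks, stood at the threshold with 0.994 and 1.08 CPM. Among the testis somatic markers 3 of 7 were detected (GATA4, SOX9 and AMH), while INSL3, CYP17A1 and STAR, which define steroid-producing Leydig cells, stayed at or below 0.166 CPM.

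The sequence that HSF1 binds was looked up in the promoters of the members before their levels were described. RefSeq promoter windows on GRCh38.p14 were available for 65 of the 72 genes, and the 250 bases before each listed start were searched on both strands. A heat shock element of 3 units (GAA, any 2 bases, TTC, any 2 bases, GAA) was present before a start of 6 of the 65 genes, or 9.23%, against 79 of 15843 protein-coding genes (0.499%). By promoter window, 81 of 22199 windows held it (0.365%). The sites below are shown because the same element precedes some of the highest members and also a nearly silent one, HSPA6. They are written 5′ to 3′ in the direction of the gene, with the element in capitals.
HSP90AB1: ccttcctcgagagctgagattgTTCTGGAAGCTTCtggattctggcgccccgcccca
HSP90AA1: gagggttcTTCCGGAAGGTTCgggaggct
HSPA8: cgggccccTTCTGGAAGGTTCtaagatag
HSPD1: attttctgGAAAGTTCTGGAAccgagcga
DNAJB6: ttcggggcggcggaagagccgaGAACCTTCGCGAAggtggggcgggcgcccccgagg
HSPA6: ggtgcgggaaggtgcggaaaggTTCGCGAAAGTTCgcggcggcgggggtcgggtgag
These windows lie at chr6:44247809-44247865, chr14:102087112-102087140, chr11:123062171-123062199, chr2:197500060-197500088, chr7:157336851-157336907 and chr1:161524444-161524500, in that order. HSP90AB1, HSP90AA1, HSPA8 and HSPD1 were among the 5 members with the highest TPM, whereas HSPA6 had 0.168 and 0.105 TPM. DNAJB6 had 80.3 and 76.4 TPM, so of these genes HSPA6 alone lay near the bottom of the range of levels. The windows of HSP90AA1, HSPA8 and HSPD1 overlap annotated exons on the strand of the gene. That of HSPD1 also lies within HSPE1, the neighbouring gene on the opposite strand. A match is a run of letters and does not show that the factor was bound.

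The shorter element of 2 units (GAA, any 2 bases, TTC, which is also contained in the 3-unit element) was found in 16 of the 65 genes (24.6%), against 6.46% of all protein-coding genes searched. It includes the pair HSPA1A and HSPA1B, whose sites are alike.
HSPA1A: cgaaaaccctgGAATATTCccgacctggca
HSPA1B: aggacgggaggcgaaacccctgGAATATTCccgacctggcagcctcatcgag
The HSPA1A site, chr6:31815426-31815455, also lies within the window before HSPA1L, the neighbouring gene on the opposite strand. The HSPA1B site is at chr6:31827611-31827662. An endoplasmic reticulum stress element (CCAAT, any 9 bases, CCACG, so that it includes a CCAAT box) was found for 2 of the 65 genes, HSPA5 and HSP90B1 (3.08%), against 0.133% of protein-coding genes. It is the binding sequence of ATF6, a regulator of chaperones of the endoplasmic reticulum.
HSPA5: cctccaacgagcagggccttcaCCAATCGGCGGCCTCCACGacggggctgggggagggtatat
HSP90B1: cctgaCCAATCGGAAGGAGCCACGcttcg
HSP90B1: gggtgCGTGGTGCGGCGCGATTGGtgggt
The HSPA5 site is at chr9:125241369-125241431 and the HSP90B1 sites are at chr12:103930211-103930239 and chr12:103930316-103930344, the last on the opposite strand. The CCAAT box alone was about as frequent in the members (41.5%) as in all protein-coding genes (40.2%), and a TATA box (TATAAA) was found in 18.5% against 11.9%. No match was found in the window of many members, which says only that these letters are not there.

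Most members were expressed. At least 1 CPM in both libraries was reached by 58 of the 72 genes, or 80.6%, beside 61.7% of all protein-coding genes. The median of the 72 genes was 27.1 CPM and 16.4 TPM, against 6.76 CPM and 3.76 TPM over protein-coding genes. Together the members took 1.61% and 1.59% of reads (Wilson 95% intervals 1.60 to 1.61 and 1.58 to 1.59), a mean of 1.60% ± 0.0127 (SD, n = 2). The 27 HSP genes took 1.36% and 1.35% of reads, and the 45 J-domain genes, which are more numerous, took 0.245% and 0.240%. Intervals cover counting error only.

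**Figure D1:**
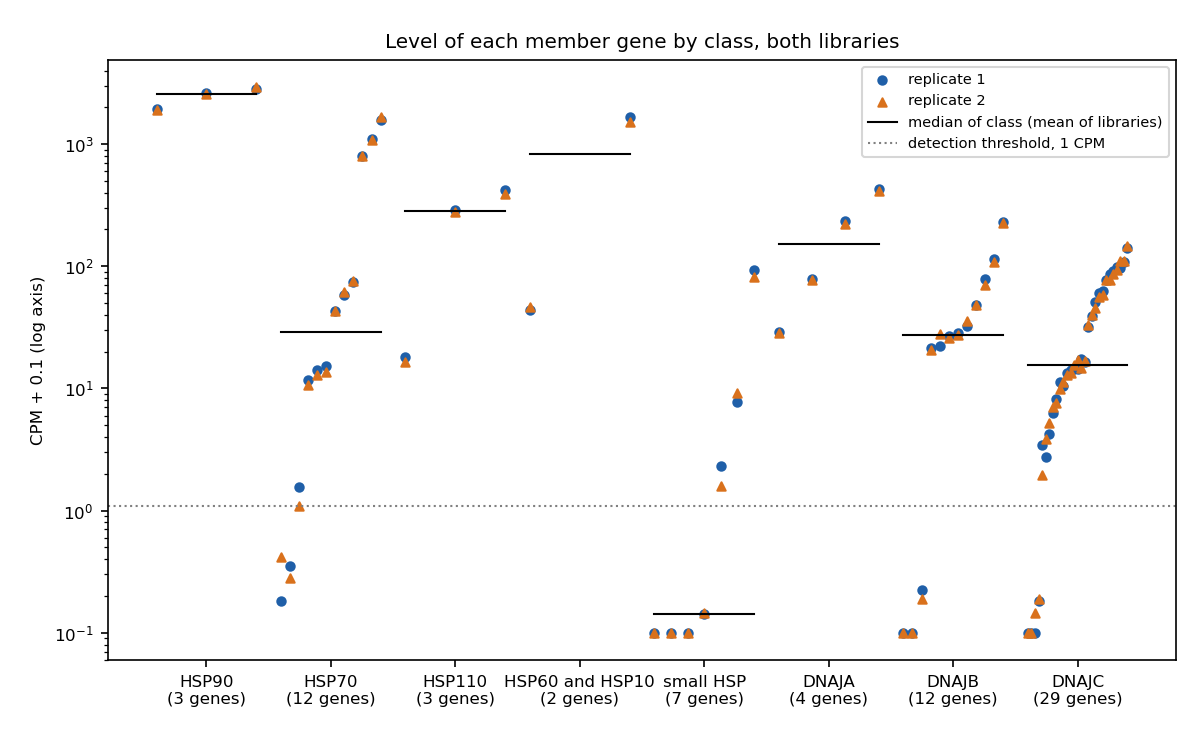
Level of each of the 72 genes in CPM (log axis, 0.1 added), by class, for replicate 1 (circles) and replicate 2 (triangles), with the class median as a line and the detection threshold of 1 CPM dotted. The 3 HSP90 genes lie between 1887 and 2920 CPM, whereas 4 of 7 small HSP genes lie below the threshold.

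The HSP90 class was the highest, and all 3 of its genes were detected. HSP90AB1, the constitutive cytosolic HSP90, had 1319 and 1304 TPM, the highest level among the members and number 118 of all genes. HSP90AA1, the cytosolic form that stress induces, had 1123 and 1152 TPM. HSP90B1, the form of the endoplasmic reticulum (also called GRP94), had 725 and 666 TPM. In reads not divided by length the order of the cytosolic pair was the other way round, with 2842 and 2920 CPM for HSP90AA1 against 2605 and 2571 CPM for HSP90AB1. The 3 genes took 0.738% of reads in each library. HSP90AA1 (ENSG00000080824.19) lies on the minus strand of chromosome 14 from 102080738 to 102139699, and HSP90AB1 (ENSG00000096384.20) on the plus strand of chromosome 6 from 44246166 to 44253888 (GENCODE 29, GRCh38).

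Among the 12 HSP70 genes, 9 were detected, and the class ran from HSPA6 at 0.168 and 0.105 TPM to HSPA8. HSPA8, the constitutive cytosolic HSP70 (HSC70), had 952 and 1014 TPM. HSPA5, the HSP70 of the endoplasmic reticulum (BiP), had 230 and 215 TPM, and HSPA9, the mitochondrial HSP70 (mortalin), had 217 and 208 TPM. In reads HSPA5 had 1109 and 1073 CPM and HSPA9 had 805 and 798 CPM. The reads of HSPA9 were 5.83 times those its TPM predicts, so its TPM is uncertain.

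The next HSP70 genes lay far lower. HSPA14, a ribosome-associated member, had 40.9 and 40.4 TPM, and HSPA2, known for its role in spermatocytes, had 38.6 and 38.8 TPM. HSPA1B, a stress-induced cytosolic form, had 29.9 and 27.9 TPM, and HSPA13, a microsomal form, had 24.4 and 23.8 TPM. The TPM values of these 4 genes did not overlap one another. The place of HSPA1B is uncertain, since its reads were 0.227 times those its TPM predicts and amounted to 11.5 and 10.6 CPM, against 58.0 and 61.0 CPM for HSPA13. HSPA12B had 6.96 and 6.30 TPM and HSPA12A had 2.09 and 2.91 TPM. Both are distant members of the family. The 3 genes not detected were HSPA1L, HSPA6 and HSPA1A.

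All 3 HSP110 genes, which act as nucleotide exchange factors of HSP70, were detected. HSPA4, the constitutive form, had 168 and 146 TPM, and HSPH1, the stress-induced form, had 113 and 109 TPM. HSPA4L, which is enriched in testis, had 5.57 and 4.76 TPM. The libraries of HSPA4 and HSPH1 did not overlap with each other, and HSPA4L was the lowest in both.

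HSPD1 (HSP60) had 995 and 895 TPM and HSPE1 (HSP10) had 1184 and 1102 TPM. Their genes stand head to head on chromosome 2. In reads, HSPE1 was low, with 43.7 and 46.1 CPM against 1678 and 1525 CPM for HSPD1, and its reads were 0.0639 times those its TPM predicts.

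Of the 7 small HSP genes, 3 were detected. HSPB1 (HSP27) had 240 and 219 TPM, HSPB8 had 5.59 and 6.69 TPM, and HSPB6 had 2.28 and 1.71 TPM. HSPB9, known from testis, had 1 read in each library. HSPB2, HSPB3 and HSPB7, known mainly from muscle and heart, were without reads. Counts of 0 leave room for 3 reads, which are 0.124 CPM at the depth of replicate 1 and 0.135 CPM at that of replicate 2.

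**Figure D2:**
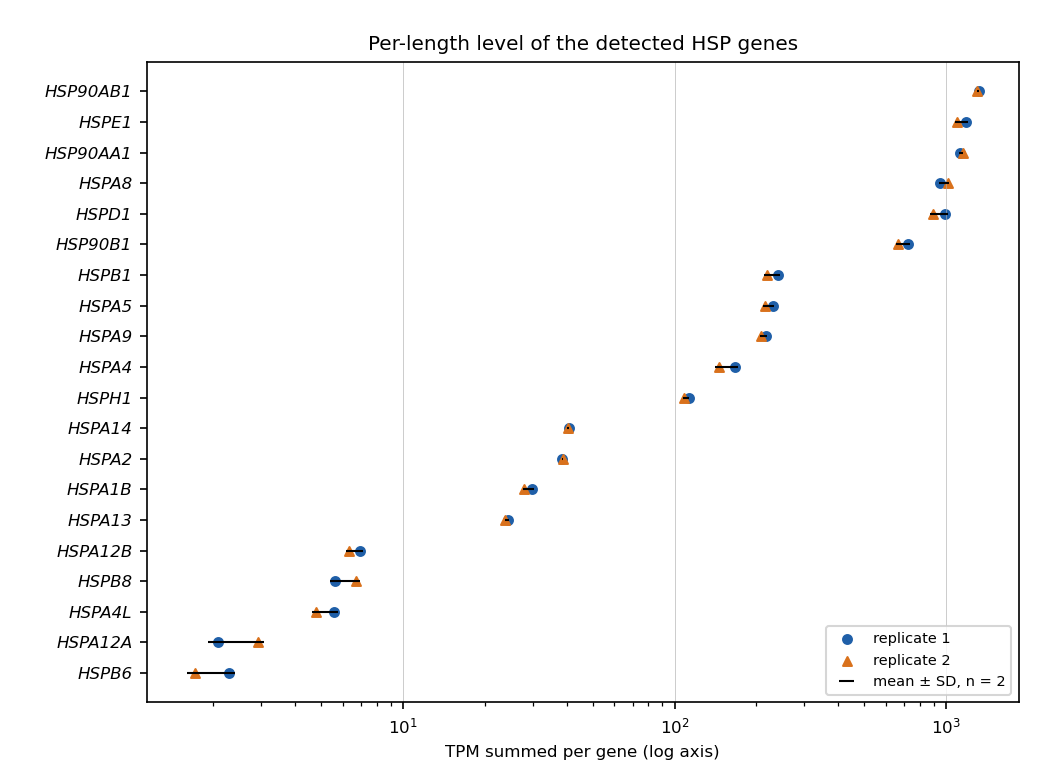
TPM summed per gene (log axis) of the 20 detected HSP genes in replicate 1 (circles) and replicate 2 (triangles), with the SD of the 2 libraries as a bar. HSP90AB1 was highest at 1319 and 1304 TPM and HSPB6 lowest at 2.28 and 1.71 TPM.

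In the order of TPM, several neighbours could not be separated by their spread. HSP90AB1 (1312 ± 10.9 TPM) lay above the rest in both libraries. HSPE1 (1143 ± 58.5 TPM) and HSP90AA1 (1138 ± 20.3 TPM) overlapped, as did HSPA8 (983 ± 44.2 TPM) and HSPD1 (945 ± 70.9 TPM), all SD with n = 2. HSP90B1 (695 ± 42.3 TPM) was clear of both its neighbours. Below it, DNAJA1 (240 ± 8.46 TPM), HSPB1 (230 ± 15.4 TPM), HSPA5 (223 ± 10.7 TPM) and HSPA9 (213 ± 6.21 TPM) formed a run in which each overlapped the next. The places of HSPE1 and HSPA9 are uncertain beyond this spread. Their reads were 0.0639 and 5.83 times those their TPM predicts.

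J-domain genes are sorted into classes A, B and C by the domains beside the J domain, and the median level was highest in class A. All 4 DNAJA genes were detected, with a median of 78.1 TPM. DNAJA1, a cytosolic partner of HSPA8, was the highest J-domain gene at 246 and 234 TPM. DNAJA2, another cytosolic partner, had 121 and 111 TPM. DNAJA3, the mitochondrial partner of HSPA9, had 41.0 and 39.8 TPM, and DNAJA4 had 14.5 and 13.7 TPM. Over the 12 DNAJB genes the median was 18.6 TPM and over the 29 DNAJC genes it was 11.2 TPM.

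In the DNAJB class 9 of 12 genes were detected. DNAJB1 (HSP40), the classical heat-induced J-domain protein, had 134 and 133 TPM. DNAJB11, of the endoplasmic reticulum, had 141 and 122 TPM, and DNAJB6, which holds back aggregation of polyglutamine proteins, had 80.3 and 76.4 TPM. DNAJB2 had 23.2 and 28.9 TPM and DNAJB12 had 21.8 and 22.8 TPM. The others ranged down to DNAJB14 at 8.14 and 6.05 TPM. DNAJB13 had 3 and 2 reads, and DNAJB7 and DNAJB8 had none.

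In the DNAJC class 25 of 29 genes were detected. The 5 with the most reads began with DNAJC5, the cysteine string protein of vesicles, at 140 and 146 CPM. It was followed by DNAJC8, found with the spliceosome, at 107 and 110 CPM, DNAJC10, a disulfide reductase of the endoplasmic reticulum, at 96.1 and 110 CPM, DNAJC7 at 97.7 and 93.0 CPM, and DNAJC11, of mitochondria, at 91.9 and 86.3 CPM. On the per-length scale DNAJC8 was first among these 5, at 86.1 and 87.9 TPM, and DNAJC10 last at 19.2 and 18.9 TPM. Not detected were DNAJC12, with 2 reads in each library, DNAJC5B with 0 and 1 read, and DNAJC5G and DNAJC25-GNG10 with none. DNAJC25-GNG10 is a readthrough gene annotated over DNAJC25 and GNG10, and it had 9.33 and 10.1 TPM although no read was counted for it.

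Inducible and constitutive members were compared next, with lists drawn from general knowledge. Of 11 genes known to be induced by heat or proteotoxic stress, 9 were detected, and of 13 constitutive genes 13 were detected. The constitutive list is mainly cytosolic, but DNAJC8 and DNAJC9 are known from the nucleus and DNAJB12 and DNAJB14 from the membrane of the endoplasmic reticulum. The inducible list took 0.564% and 0.553% of reads and the constitutive list 0.551% and 0.555%. Per length the lists were not equal, with summed TPM of 4081 and 3885 (inducible) against 2954 and 2971 (constitutive). HSPE1 alone held 1184 and 1102 TPM of the inducible sum, although its reads were 0.0639 times those its TPM predicts. Without HSPE1 the inducible sum lay below the constitutive sum in both libraries. These sums depend on how the lists were drawn. The inducible list includes the mitochondrial HSPD1 and HSPE1, whereas the constitutive list leaves out HSP90B1, HSPA5 and HSPA9. The inducible genes were not uniformly low. HSP90AA1 and HSPD1 were near the top of all members in TPM, as was HSPE1, whose reads were far below its TPM. HSPB1, DNAJA1, DNAJB1 and HSPH1 lay between 109 and 246 TPM, HSPA1B had 29.9 and 27.9 TPM, and DNAJA4 had 14.5 and 13.7 TPM.

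The stress-induced HSP70 genes of the list are HSPA6, HSPA1A and HSPA1B. HSPA6, which is almost silent in cells that are not stressed, had 6 and 4 reads, or 0.249 CPM (95% Wilson interval, 0.114 to 0.542) and 0.180 CPM (0.0701 to 0.463). HSPA1A had 2 and 7 reads, or 0.0829 CPM (0.0227 to 0.302) and 0.315 CPM (0.153 to 0.651). HSPA1B had 278 and 236 reads, or 11.5 CPM (10.2 to 13.0) and 10.6 CPM (9.36 to 12.1). Of this group HSPA1B alone was detected.

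HSPA1A and HSPA1B cannot be read as separate genes from these counts. Their coding sequences are 1926 bases each and differ at 4 positions, counted from 1 at the A of the start codon, as G1710T, G1860C, C1905T and A1920G with the HSPA1A base first. The first 1709 coding bases are identical. The first difference is shown in coding bases 1680 to 1740, with the base in capitals.
HSPA1A: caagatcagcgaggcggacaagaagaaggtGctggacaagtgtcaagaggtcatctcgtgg
HSPA1B: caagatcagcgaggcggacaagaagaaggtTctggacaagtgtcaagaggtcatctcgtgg
Of all windows of 100 bases along the main transcript, 69.9% in HSPA1A and 72.7% in HSPA1B also occur in another annotated gene, mostly the partner. None of the windows in the 3′ UTR of HSPA1B occurs in that of HSPA1A. The reads of HSPA1B were 0.227 times those its TPM predicts. How reads that match both copies were counted is not given in the sources used here, so the pair is summed in TPM for the ratio that follows. Any TPM assigned to AL671762.1 is not in that sum. HSPA1A (ENSG00000204389.10) lies on the plus strand of chromosome 6 from 31815464 to 31817946 and HSPA1B (ENSG00000204388.7) from 31827735 to 31830255.

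Paralog pairs with a constitutive and an inducible form were set against each other on the TPM scale. The level of HSPA8 was 31.5 and 36.0 times that of HSPA1A and HSPA1B together, a mean of 33.7 ± 3.19 (SD, n = 2). HSP90AB1 was 1.17 and 1.13 times HSP90AA1, a mean of 1.15 ± 0.0302. HSPA4 was 1.49 and 1.34 times HSPH1, a mean of 1.42 ± 0.102. This ratio includes 63.0 and 48.8 TPM of HSPA4-203, a retained-intron form, and 33.0 and 26.7 TPM of HSPH1-206, an annotated decay target. The coding HSPA4-201 alone had 105 and 97.1 TPM. The coding forms of HSPH1 were HSPH1-209 at 44.7 and 48.7 TPM and HSPH1-202 at 19.4 and 16.1 TPM. HSPH1-203 had 8.14 and 10.3 TPM and HSPH1-201 had 7.09 and 6.28 TPM. Together these coding forms of HSPH1 lay below HSPA4-201 in both libraries. In TPM summed per gene, the constitutive form was higher in both libraries in each of the 3 pairs, and the margin was widest for HSP70. The same direction was found with reads per kilobase of merged exons, where the mean ratios were 75.0, 1.58 and 2.35. That scale uses the HSPA1B reads, which were 0.227 times those its TPM predicts. It also divides by all annotated exons of a gene, and in reads not per length HSP90AB1 was 0.898 times HSP90AA1 as a mean.

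Members known from testis were mostly absent. Of 9 such genes 2 were detected, HSPA2 and HSPA4L, at 74.2 and 75.1 CPM and at 18.1 and 16.4 CPM. HSPA1L, known from spermatids, was at the threshold with 35 and 22 reads, or 1.45 CPM (95% Wilson interval, 1.04 to 2.02) and 0.991 CPM (0.655 to 1.50). HSPB9, DNAJB13 and DNAJC5B had at most 3 reads in a library, and DNAJB7, DNAJB8 and DNAJC5G had none. A further listed gene, DNAJB3, is annotated as a pseudogene, is not counted among the 9, and had no read. Among 9 markers of later germ cells 1 was detected, DMC1 at 1.70 and 1.76 CPM. The list summed to 2.53 and 2.16 CPM, and DAZL, SYCP1, TNP1 and PRM1 had no read. HSPA2 is also expressed outside the testis. Its level was lower than that of HSPA8 by a factor of 24.7 and 26.1 in TPM.

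By compartment, all 10 listed members of the endoplasmic reticulum were detected. HSP90B1 (725 and 666 TPM) and HSPA5 (230 and 215 TPM), which carry the stress element shown above, were the highest. DNAJB11 followed at 141 and 122 TPM, with reads 0.490 times those its TPM predicts, then HSPA13 and DNAJC10. DNAJB9, an inhibitor of the sensor IRE1, had 17.2 and 15.6 TPM, and DNAJC1 and DNAJC3, the latter an inhibitor of the kinase PERK, had 11.7 and 11.7 TPM and 11.9 and 10.4 TPM. DNAJC25 and DNAJC16 were lower, at 7.57 and 7.92 TPM and at 3.05 and 3.25 TPM. HSPA5 stood at 0.318 and 0.323 times HSP90B1 in TPM, and at 0.687 as a mean in reads per kilobase.

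All 10 listed mitochondrial members were detected too. Behind HSPE1, HSPD1 and HSPA9 came DNAJC19, of the import motor, at 48.2 and 50.9 TPM, DNAJA3 at 41.0 and 39.8 TPM, and DNAJC11 at 35.3 and 33.5 TPM. DNAJC4 had 21.0 and 21.9 TPM, DNAJC15 had 7.32 and 7.40 TPM, DNAJC30 had 4.03 and 4.08 TPM and DNAJC28 had 2.37 and 3.24 TPM. HSCB, a J-domain protein of iron-sulfur cluster assembly outside the symbol rule, had 6.47 and 6.49 TPM.

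Of 47 other genes of the chaperone system, 41 were detected, and the regulators and partners of the members are among them. HSF1 had 112 and 117 TPM and HSF2 had 12.6 and 10.9 TPM, while HSF4 and HSF5 were not detected. STIP1, which links HSP70 to HSP90, had 346 and 335 TPM. The HSP90 partners PTGES3 (p23), FKBP4 and AHSA1 had 596 and 601, 298 and 302, and 229 and 210 TPM. BAG3, an exchange factor induced with the HSPs, had 34.4 and 31.9 TPM. CRYAA and CRYAB, the alpha-crystallin members of the small HSP family, had 0 and at most 1 read. Between the libraries 10 of 43 tested genes of this list were beyond counting noise (exact binomial test, described next), 5 higher and 5 lower in replicate 2, beside 13.1% of all genes tested.

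The difference between the libraries was set against counting noise with an exact binomial test per gene, two-sided, as replicate 2 against replicate 1. This compares 2 libraries and not conditions. Of the 72 members 59 passed the filter on low counts, and 11 of these were called at an adjusted p below 0.05, 4 higher and 7 lower in replicate 2. Over all 15299 genes tested, 13.1% were called, 6.78% higher and 6.35% lower. The test calls smaller differences where counts are higher, and the median was 27.1 CPM over the members against 6.76 CPM over protein-coding genes. The 13.1% is therefore not matched for level, for the members or for the lists set beside it. The median log2 difference was -0.044 over the 59 members and -0.0077 over all genes whose mean reached 1 CPM, and the members ranged from -0.61 to 0.39. In log2(CPM + 1), the scale of these medians, the change of low genes is understated.

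Of the 3 members with the most reads, HSP90AA1 was called, and HSP90AB1 and HSP90B1 were not (edgeR binomial test, adjusted p = 0.454 and 0.0544). The log2 differences given for single genes are those of the test, after TMM scaling and without the added 1 CPM. HSPD1 was lower in replicate 2, with a log2 difference of -0.13 (1678 and 1525 CPM, edgeR binomial test, adjusted p = 8.7e-32), and HSPA8 was higher, with 0.11 (1565 and 1682 CPM, adjusted p = 3.9e-24). HSP90AA1 differed by 0.047 (2842 and 2920 CPM, adjusted p = 1.7e-07) and HSPA4 by -0.10 (422 and 391 CPM, adjusted p = 4.0e-05). HSPA5 differed by -0.040 (adjusted p = 0.0194), and with the authors' deposited factors it was not called (adjusted p = 0.0592). HSPB1 was at 92.3 and 81.4 CPM (log2 difference -0.17, adjusted p = 0.0027).

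The called J-domain genes were DNAJC10, DNAJB4, DNAJB11, DNAJC13 and DNAJC22. DNAJC10 had 96.1 and 110 CPM (log2 difference 0.21, adjusted p = 3.1e-05), and DNAJB4, a cytosolic class B gene, had 22.1 and 27.7 CPM (0.33, adjusted p = 0.0018). DNAJB11 was at 78.8 and 70.0 CPM (-0.16, adjusted p = 0.0102), DNAJC13, of endosomes, at 85.7 and 77.1 CPM (-0.14, adjusted p = 0.0218), and DNAJC22 at 3.36 and 1.85 CPM (-0.85, adjusted p = 0.0197). Of the 9 inducible genes tested, 7 lay lower and 2 higher in replicate 2, with a median log2(CPM + 1) difference of -0.049. Over the 59 members 36 lay lower and 23 higher. Among all genes whose mean reached 1 CPM, 7255 lay lower and 6643 higher. Of the 9 inducible genes 3 were called, 1 higher and 2 lower, beside the 13.1% called over all genes.

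**Figure D3:**
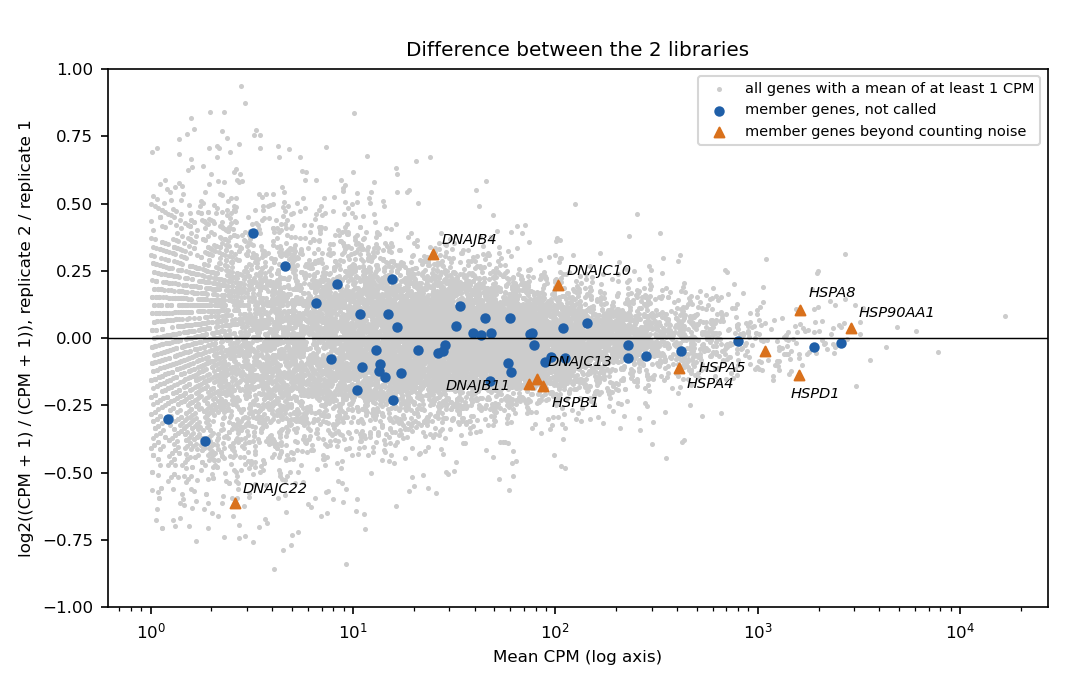
log2 difference between replicate 2 and replicate 1, on the CPM + 1 scale, against mean CPM (log axis), for genes whose mean reached 1 CPM (grey) and the members (circles, or triangles where beyond counting noise). The 11 named members lie on both sides of 0, 4 above and 7 below.

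At the level of transcripts, members usually rested on 1 main form among the transcripts matched to genes. Of 251955 transcripts, 50288 were not matched and are left out of all shares below. Of the 40 members with more than 1 transcript and at least 10 TPM in both libraries, the top transcript held a median of 91.0% of the gene's TPM, and 21 members were above 90%. The main transcript of HSP90AB1, HSP90AB1-203, held 99.6% and 99.7%. The same transcript was the top one in both libraries for all 40. The top transcript differed for 6.90% of the 7040 genes compared, and for 4.39% of genes with at least 50 TPM. With 40 members, the absence of a change is not read as a trait of the family. HSPA8-224 held 83.1% and 86.7% of HSPA8.

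A few members were split. HSPH1-209 held 39.8% and 44.8% of HSPH1, and HSPH1-206, annotated as a target of nonsense-mediated decay, held 29.3% and 24.6%. DNAJB6 was divided between DNAJB6-201 of 2527 bases, at 54.8% and 53.8%, and DNAJB6-204 of 1609 bases, at 39.9% and 42.8%. DNAJC5 was split between DNAJC5-202, annotated as a decay target, at 51.8% and 52.5%, and the coding DNAJC5-201 at 48.2% and 47.5%. In HSPA4, the retained-intron form HSPA4-203 held 37.6% and 33.5%. The lowest top share was that of DNAJA4-201, at 43.1% and 39.0%. The largest move between libraries was in DNAJB2, where DNAJB2-202 held 92.1% and 77.0%, a step of 15.1 percentage points.

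**Figure D4:**
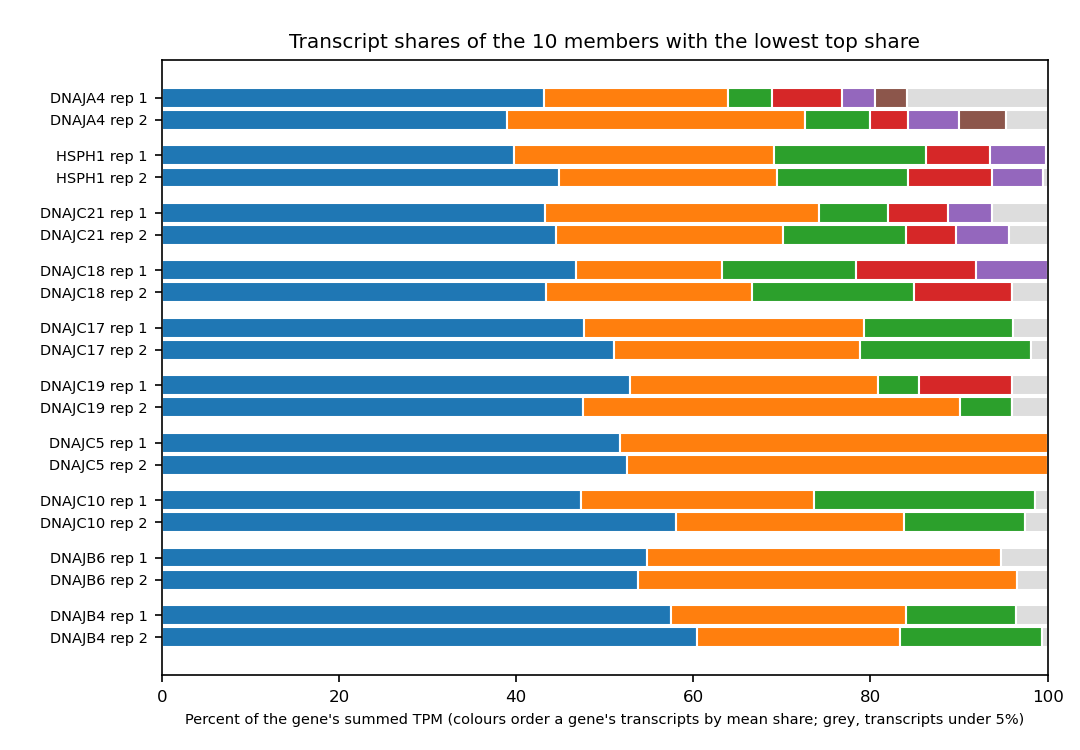
Share of each gene's summed TPM held by its transcripts, in percent, in both libraries, for the 10 members with the lowest top share of the 40 compared. The first segment is the top transcript, from 41.1% as a mean in DNAJA4 to 58.9% in DNAJB4.

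The gene reads were compared with the number that TPM and transcript length predict. At 10 TPM or more in both libraries, 3 of 42 members differed by over 4-fold, or 7.14%, beside 6.34% of all 7432 genes. HSPE1 had 0.0639 times and HSPA1B 0.227 times the predicted reads. HSPA9 had 5.83 times. With a limit of 2-fold, DNAJB11 joined them at 0.490 times, making 4 of 42 members (9.52%) beside 10.9% of genes. Of the transcript windows of HSPE1, 17.0% recur in other genes, most of them in HSPE1-MOB4, a readthrough gene that overlaps it. The top transcript of HSPA9 among those matched to genes was HSPA9-208, of 663 bases and annotated as a decay target, at 83.4% and 86.0%, with the coding HSPA9-201 at 31.5 and 24.1 TPM. Of the transcripts in the table, 50288 were not matched to a gene. Whether these facts produced the differences was not tested. From 1 TPM upwards, DNAJC14 (6.72 times the prediction) and DNAJC25-GNG10 (no reads) were also apart. Exons of DNAJC14 overlap another gene on the same strand over 23.2% of their length. For DNAJC25-GNG10 this overlap was 100%, for HSPA1B 36.5%, for HSPE1 9.71% and for HSPA9 1.09%.

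**Figure D5:**
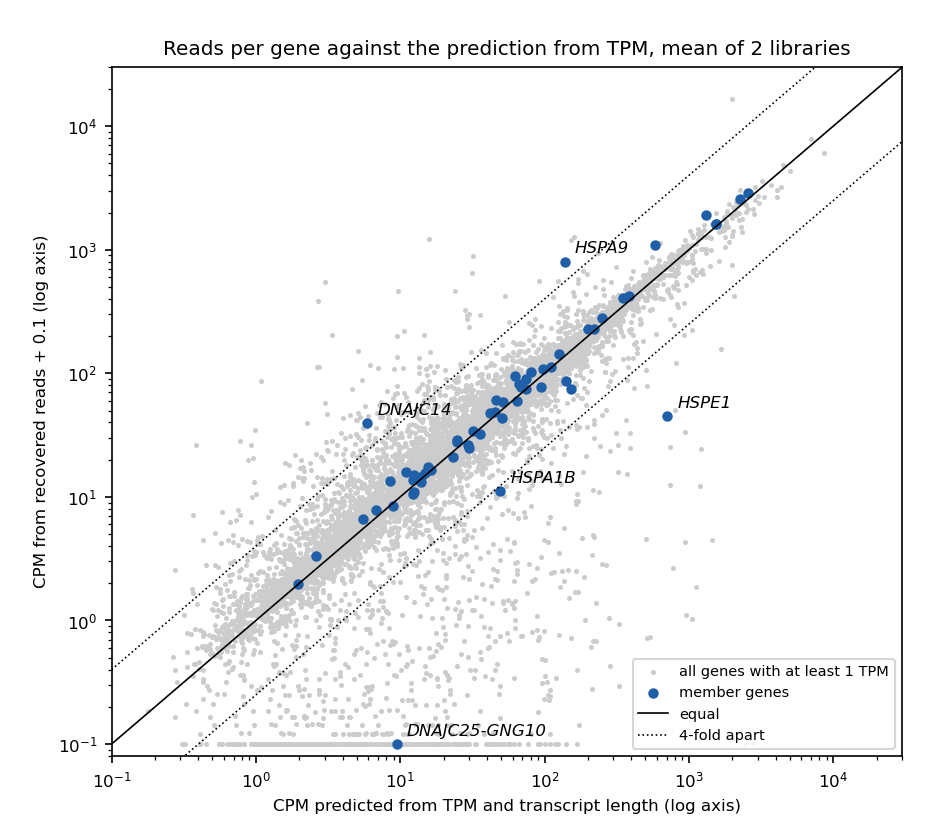
Mean CPM from recovered reads, with 0.1 added, against the CPM predicted from TPM and transcript length (both log axes), for all genes with at least 1 TPM (grey) and the members (circles). Dotted lines are 4-fold from equality, and HSPE1, HSPA1B, HSPA9, DNAJC14 and DNAJC25-GNG10 lie outside them.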

How the data were processed

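Polyadenylated RNA of 2 replicate libraries was made into stranded libraries, per the labels' protocols. The submitters' processing notes name Trim Galore 0.6.10, STAR 2.7.11a, DESeq2 and Salmon 1.10.2. The annotation and the counting tool are not given in the sources used here. The authors deposited transcript TPM, and a gene table of signal values, which are read counts scaled by a factor of each library. Each deposited signal value was a whole multiple of that of 1 read (1.02 and 1.12, tolerance 0.01, 100% whole), which gave reads and CPM. No per-sample column was unused (0). Transcripts were matched to genes through GENCODE 29, which covered 94.8% of TPM.

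Libraries were compared with edgeR 4.0.16 (exact binomial test, TMM, filterByExpr, Benjamini-Hochberg adjustment, R 4.3.3), tested on simulated data. A gene was called detected at 1 CPM in both libraries. A model with replicate error needs 2 groups and was not fitted. Alternatives were DESeq2 1.42.0 size factors, the deposited factors, other thresholds and each library alone. Named genes are every HSP member and, of the J-domain genes, the 5 highest by CPM in each class, list members, called, undetected and discordant ones. The members and lists were chosen with earlier results of these data known.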

Additional observations from a re-analysis of the deposited data

How the results depend on the processing

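The number of detected members was 54 to 60 over the thresholds, TPM and single libraries tried, against 58, and the number beyond counting noise was 10 to 12 under the other scalings and filter, against 11. The median log2 difference kept its sign. On the TPM scale the members took 0.920% of the total, against 1.60% of reads, where each library alone gave 1.59% to 1.61%. Reads per kilobase of merged exons changed the ratios of HSPA8 to HSPA1A plus HSPA1B, HSP90AB1 to HSP90AA1, and HSPA4 to HSPH1 to 75.0, 1.58 and 2.35. Single libraries gave 31.5 to 36.0, 1.13 to 1.17 and 1.34 to 1.49. The ratio of HSPD1 to HSPE1 turned from 0.826 in TPM to 16.6. From 1 TPM upwards, 4 of 53 members changed top transcript (DNAJC16, DNAJC25, DNAJC27 and HSPA4L), beside 11.7% of genes, and 5 of 57 (8.77%) differed over 4-fold between reads and TPM, beside 8.01% of genes. The cause of these changes was not tested. No paired analysis was possible because both libraries belong to the same group. Depth limits what can be said of genes with under 3 reads.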

Other observations

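The chaperonin TRiC, which folds actin and tubulin in the cytosol and is related to HSP60, is not part of the family described above. Its 8 subunit genes were all high, from CCT4 at 315 and 332 TPM to CCT5 at 722 and 728 TPM, a range that lies between HSPA5 and HSP90B1 apart from CCT5. CCT6B, the paralog of CCT6A known from testis, had 1.43 and 1.89 TPM against 568 and 499 TPM for CCT6A. TTC4, a partner of HSP90, had 0.580 and 0.450 CPM but 25.7 and 26.7 TPM.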
